A study of Mus musculus with 17 samples.

Results

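Interferon-stimulated genes are described here by the accessibility of their promoters in mouse kidney. The set held 41 of 55413 annotated genes, named as known interferon-induced genes and components of interferon signalling. All but Mx2 are among the 21938 genes annotated as protein-coding. ATAC-seq, in which a transposase cuts accessible DNA and the cut ends are sequenced, had been applied to 20000 kidney cells from each of 17 male mice, 1 library per mouse. Ctrl mice were wild-type C57BL/6 and received saline (n = 5). Case mice were db/db mice of the strain BKS.Cg-Dock7m +/+ Leprdb/J, in which the leptin receptor is mutated, and also received saline (n = 6). Dapa mice were db/db mice of that strain treated with dapagliflozin, which inhibits the renal glucose transporter SGLT2 (n = 6) at a daily dose of 1.0 mg/kg. In all 3 groups saline or drug was begun at 8 weeks of age and continued over 6 weeks. Both db/db groups carry the mutation in every cell, so that genotype, diabetes and strain cannot be told apart between Ctrl and db/db mice, whereas Dapa and Case mice share genotype and strain. The labels name no batch.

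Type I interferons bind a receptor built from IFNAR1 and IFNAR2, whose kinases JAK1 and TYK2 activate a complex with STAT2 and IRF9, and this complex binds the interferon-stimulated response element (ISRE) in the promoters of target genes. Interferon gamma signals through a receptor that contains IFNGR1, and its target promoters carry the gamma-activated site (GAS). Target genes include the ubiquitin-like modifier Isg15, the RNA-binding Ifit proteins, the RNA sensors Ddx58 (RIG-I) and Ifih1 (MDA5), the 2′-5′ oligoadenylate synthetases, the Mx and Gbp GTPases, and the transcription factors that renew the response.

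The ISRE was searched as GAAANNGAAA on both strands (TTTCNNTTTC on the reverse) and the GAS as TTCNNNGAA, which reads alike on both strands, in promoters of 300 bases from RefSeq (GRCm38.p6; 250 bases before to 50 after the start). Overlapping matches were each counted, and a GAS match could overlap an ISRE match. RefSeq promoters matched 34 of the 41 genes by symbol, and Mx1, Mx2, Usp18, Parp9, Parp14, Zbp1 and Ifi27 were not matched. An ISRE match was found in 16 of the 34 (47.1%), against 3.99% of 27025 genes with a promoter sequence, and a GAS match in 11 (32.4%) against 9.55%. The promoters of Ifit3b, Ifit3 and Isg15 are shown because all have ISRE matches and called summits were found in different numbers of mice. They are given 5′ to 3′ along the gene, with ISRE matches in capitals (Ifit3b, chr19:34607707-34608006, plus strand; Ifit3, chr19:34583279-34583578, plus strand; Isg15, chr4:156200769-156201068, minus strand).
Ifit3b: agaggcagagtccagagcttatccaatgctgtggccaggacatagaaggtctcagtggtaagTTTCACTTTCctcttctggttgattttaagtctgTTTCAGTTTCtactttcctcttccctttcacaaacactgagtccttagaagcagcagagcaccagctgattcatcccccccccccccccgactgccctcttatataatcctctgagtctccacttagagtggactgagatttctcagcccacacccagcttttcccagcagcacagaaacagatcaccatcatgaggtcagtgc
Ifit3: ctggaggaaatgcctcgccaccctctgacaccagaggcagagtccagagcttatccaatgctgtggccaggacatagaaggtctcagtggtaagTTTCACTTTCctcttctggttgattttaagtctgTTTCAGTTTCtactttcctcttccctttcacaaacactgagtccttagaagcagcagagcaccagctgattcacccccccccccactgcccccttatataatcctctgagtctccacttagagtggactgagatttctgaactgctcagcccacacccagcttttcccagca
Isg15: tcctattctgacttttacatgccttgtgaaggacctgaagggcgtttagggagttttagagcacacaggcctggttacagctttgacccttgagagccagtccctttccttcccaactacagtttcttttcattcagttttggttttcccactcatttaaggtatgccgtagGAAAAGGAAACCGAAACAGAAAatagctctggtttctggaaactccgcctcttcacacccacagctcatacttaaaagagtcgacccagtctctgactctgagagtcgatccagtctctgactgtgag

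Relative to the start, the ISRE matches lay at −188 and −154 in Ifit3b and at −156 and −122 in Ifit3. Isg15 had 3 matches between −78 and −66, which overlap one another. The stretch around the Ifit3b summits (chr19:34607551-34607851) matched chr19:34583157-34583455 beside Ifit3 at 99.0% identity over 299 aligned bases. None of the other genes with a promoter site had such a copy (at least 200 aligned bases at 90% identity) of its main promoter site. Short reads from these promoters could therefore be assigned to either gene, and the values of Ifit3b and Ifit3 are uncertain to that extent; how reads from them were placed was not tested.

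The deposited files list, for each mouse, the summits of peaks, the base at which cutting was densest, scored by the −log10 of a p-value or q-value of the peak caller. The lists held 37402 to 56659 summits in Ctrl, 29702 to 51292 in Case and 32846 to 49442 in Dapa mice. Read depth is not given in the sources used here. To compare lists of 1 length, the 29702 highest-scoring summits of each mouse were ranked (equal-length lists). The promoter rank percentile of a gene was the position of its best summit within 1 kb of any annotated start, on a scale from 0 (no summit) to 100 (top of the list). Of the 25 leukocyte marker promoters, 0 to 1 had a summit in Ctrl, 1 in each of 5 Case mice, 8 in Case 3, and 0 to 5 in Dapa mice, with the highest number in Dapa 8. The mean percentile over the list ran from 0 to 1.60 in Ctrl, 0.160 to 18.3 in Case and 0 to 9.15 in Dapa mice, and 11 of the 25 markers, Ptprc, Cd79a, Itgam and Adgre1 among them, had no promoter summit in any mouse. The others included Coro1a in 6 mice, Cd2 in 4, Spi1 in 3 and Cd3e, Cd8a, Ms4a1, Csf1r and Itgax in 1 each. Kidney epithelium markers had a promoter summit for 10 to 16 of 25 genes in every mouse. A change in the cells sampled and a change within cells cannot be told apart in such bulk libraries.

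A promoter summit was present in all 17 mice for 12 of the 41 genes (29.3%), in 1 to 16 mice for 24 (58.5%) and in no mouse for 5 (12.2%). Over all protein-coding genes the shares were 31.6%, 35.6% and 32.9%. The set thus held fewer promoters with no summit in any mouse and more promoters found in some mice only. Within the class found in all mice, the median of the mean percentile was 79.2 for the set and 83.3 for the 6924 protein-coding genes, and within the intermediate class it was 17.7 and 18.4.

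**Figure D1:**
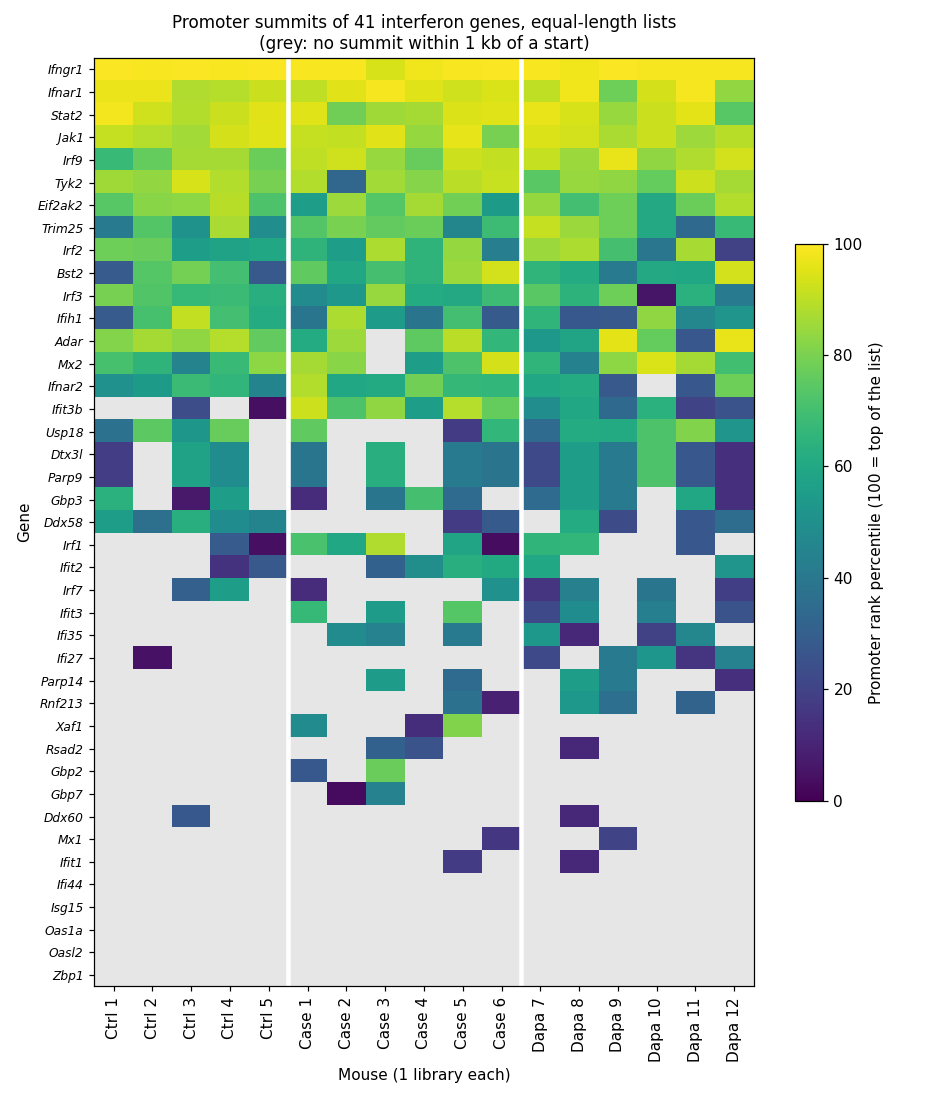
Heat map of the promoter rank percentile (colour, 0 to 100; grey, no summit) of the 41 genes (vertical axis, ordered by the number of mice with a summit) in the 17 mice (horizontal axis; white lines separate Ctrl, Case and Dapa). The 12 genes at the top had a summit in all 17 mice and the 5 at the bottom in none.

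Of the 12 genes found in all mice, 8 were receptors, kinases or transcription factors of the pathway. Among the 5 receptor and kinase genes, 4 had a promoter summit in every mouse. Ifngr1, the ligand-binding chain of the interferon gamma receptor, ranked highest of the set, with a mean percentile of 98.6 over the 17 mice and a range from 93.8 to 99.4. Ifnar1 followed at 92.5 (77.8 to 98.8), Jak1 at 90.3 (79.6 to 96.3) and Tyk2 at 82.4 (33.2 to 93.9). Ifnar2 had a summit in 16 mice, with a mean of 56.4, and lacked one in Dapa 10. By group, Ifnar1 averaged 92.7 ± 4.3 in the 5 Ctrl mice, 94.5 ± 2.83 in the 6 Case mice and 90.3 ± 8.21 in the 6 Dapa mice (mean ± SD). Its values in Ctrl 1 to 5 were 97.0, 97.2, 88.1, 88.9 and 92.1, with a lowest, median and highest of 90.3, 94.7 and 98.8 in Case and of 77.8, 91.9 and 98.7 in Dapa mice, so the groups overlapped. Ifngr1 averaged 99.1 ± 0.235, 98.1 ± 2.17 and 98.7 ± 0.495 in the same order. It ran from 98.9 to 99.4 in Ctrl, from 93.8 to 99.4 in Case and from 97.9 to 99.3 in Dapa mice, which also overlapped.

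Among the 6 transcription factors, Irf2, Irf3, Irf9 and Stat2 had a promoter summit in all 17 mice. Stat2, a subunit of the complex that binds the ISRE, had a mean of 90.6. Its percentile was 98.1, 92.7, 88.4, 91.9 and 95.5 in Ctrl 1 to 5, with a lowest, median and highest of 78.4, 90.6 and 95.1 in Case and of 74.1, 93.1 and 96.5 in Dapa. The groups overlapped throughout. Irf1 and Irf7, which are themselves induced by interferon, had a promoter summit in 10 and 8 mice.

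The effector genes lay mostly in the intermediate class. Bst2 (tetherin) and Eif2ak2 (the double-stranded RNA kinase PKR), the ubiquitin ligase Trim25 and the sensor Ifih1 had a summit in all mice, with means of 65.3, 76.1, 67.0 and 55.5. The RNA-editing enzyme gene Adar and the GTPase gene Mx2 had one in 16. All 4 Ifit genes and all 5 GTPase genes were in the intermediate class, with Mx1, Ifit1, Gbp2 and Gbp7 in 2 mice each. In the equal-length lists Gbp2 and Gbp7 had a summit in 2 Case mice each and in no other mouse, and both were highest in Case 3, at 77.0 and 44.2. In the complete lists Gbp2 had one in 1 Ctrl, 2 Case and 1 Dapa mice and Gbp7 in 3, 3 and 1. Case 3 also had the most leukocyte marker promoters, as given above, and the part of that difference in the Gbp values was not tested. Parp9 and Dtx3l, which encode interacting proteins, are transcribed from a shared region and had the same values. The Irf3 and Bcl2l12 starts, and those of Ifit1 and Ifit1bl2, likewise lay within 1 kb of a shared summit.

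The 5 genes without a promoter summit in any mouse were Isg15, Oas1a, Oasl2, Ifi44 and Zbp1. They remained so in the complete lists. Isg15, one of the candidate genes of the study, had a percentile of 0 in all 17 mice, also in the window from 10 kb upstream to the end of the gene. In the complete lists that window held a single summit, in Dapa 8, 2380 bases upstream of Isg15 and 106 bases from the start of AW011738. In the other mice but Dapa 9 (8201 bases) the nearest summit lay 2703 to 3454 bases downstream of the Isg15 start, past the end of the gene and nearest to the start of Agrn, which encodes the basement membrane protein agrin. The Isg15 start itself, with its 3 ISRE matches, had no called summit in any of the groups. The paper reported raised accessibility at Isg15 in its diabetic group, lowered with dapagliflozin, from its own quantification of ATAC-seq. That quantification was not compared with the called summits here, and an absent summit may be one below the calling threshold.

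Sequence composition is given by class, with no test. The median ratio of observed to expected CpG in RefSeq promoters was 0.692 for the 12 genes found in all mice, 0.350 for 18 intermediate genes and 0.323 for 4 genes without a summit. ISRE matches were present in 5 of 12, 9 of 18 and 2 of 4 of these promoters, shares of 41.7%, 50.0% and 50.0%. In windows of 301 bases at the summits themselves, 10 of 30 genes had an ISRE match (33.3%), against 2.27% of 11441 genes.

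The number of the 41 genes with a promoter summit was 18 to 23 in Ctrl (median 20), 19 to 29 in Case (median 25) and 22 to 30 in Dapa mice (median 25.5). Over all protein-coding genes it was 11171 to 11411 in Ctrl, 10017 to 10974 in Case and 10149 to 11179 in Dapa mice. The groups overlapped for the set, whereas for all genes every Case mouse lay below every Ctrl mouse. In the complete lists the order of the set's medians was not kept, with 26.0 genes in Ctrl (23 to 29), 25.5 in Case (20 to 32) and 27.0 in Dapa mice (24 to 31).

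**Figure D2:**
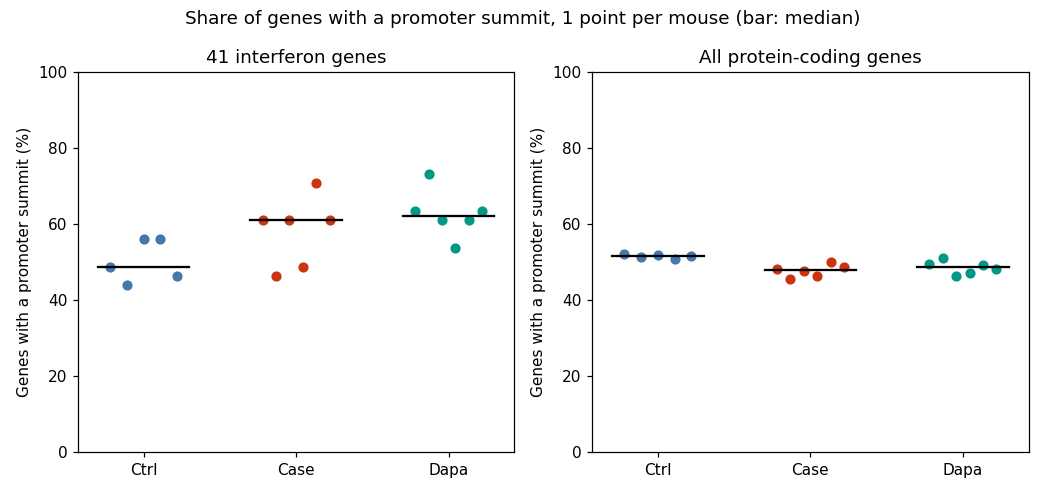
Percentage of genes with a promoter summit (vertical axis) in each mouse (points) of the 3 groups (horizontal axis), for the 41 interferon genes (left) and for all protein-coding genes (right); bars mark group medians. The set had medians of 48.8%, 61.0% and 62.2% in Ctrl, Case and Dapa, and all genes had medians of 51.6%, 47.9% and 48.7%.

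The first comparison asked how the promoters of diabetic mice differed from those of healthy mice. Of the 41 genes, 23 had a promoter summit in at least 4 Ctrl and Case mice and were tested, by an exact permutation test per gene (2-sided, 462 relabellings) adjusted over all 11682 protein-coding genes tested. Ifit3b was higher and Ddx58 was lower in Case mice at an unadjusted p under 0.05, 2 of 23 genes, while 14.4% of all genes passed that threshold, with 2.59% of all genes higher and 11.8% lower in Case. Ifit3b had a promoter summit in 2 Ctrl and 6 Case mice, and Ddx58 in 5 Ctrl and 2 Case mice. Neither would have met the filter of 4 mice without the group where it was high, and the count of 2 draws on that filter. The same holds for Ifit3b between Dapa and Ctrl mice. After adjustment no gene passed (0.0% of 11682), the smallest adjusted p being 0.166, and the smallest p that the relabellings allow is 0.00433. By limma, a moderated test fitted across all genes, 94 genes passed the adjusted threshold, Ifit3b and Ddx58 among them. The median difference was 0.920 percentile points over the 23 genes and −2.76 over all genes. The sign of the set's median was not stable: without Case 3, the mouse with the most leukocyte marker promoters, it was −1.59 (−2.73 over all genes), and in the complete lists −4.52 (−6.28 over all genes).

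Ifit3b, which encodes a member of the interferon-induced family of RNA-binding proteins with tetratricopeptide repeats, had percentiles of 0, 0, 23.8, 0 and 4.24 in Ctrl 1 to 5. In Case 1 to 6 the values were 92.2, 72.0, 83.5, 55.6, 89.0 and 76.2. In Dapa 7 to 12 they were 49.0, 59.9, 34.2, 63.8, 20.5 and 25.5. Every Case mouse lay above every Ctrl mouse, and the Dapa mice lay between, overlapping with both. The mean difference between Case and Ctrl was 72.5 points (exact permutation p = 0.00433, adjusted p = 0.166), the highest of the 11682 genes tested. Groups that do not overlap in this comparison were found for Ifit3b and Ddx58 and for 2.61% of all genes. The difference kept its direction and an unadjusted p under 0.05 in the complete lists, where it was 45.6 points and where all 17 mice had an Ifit3b summit, and with every mouse left out in turn (69.6 to 77.0). Without Case 3 it was 71.4 points.

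**Figure D3:**
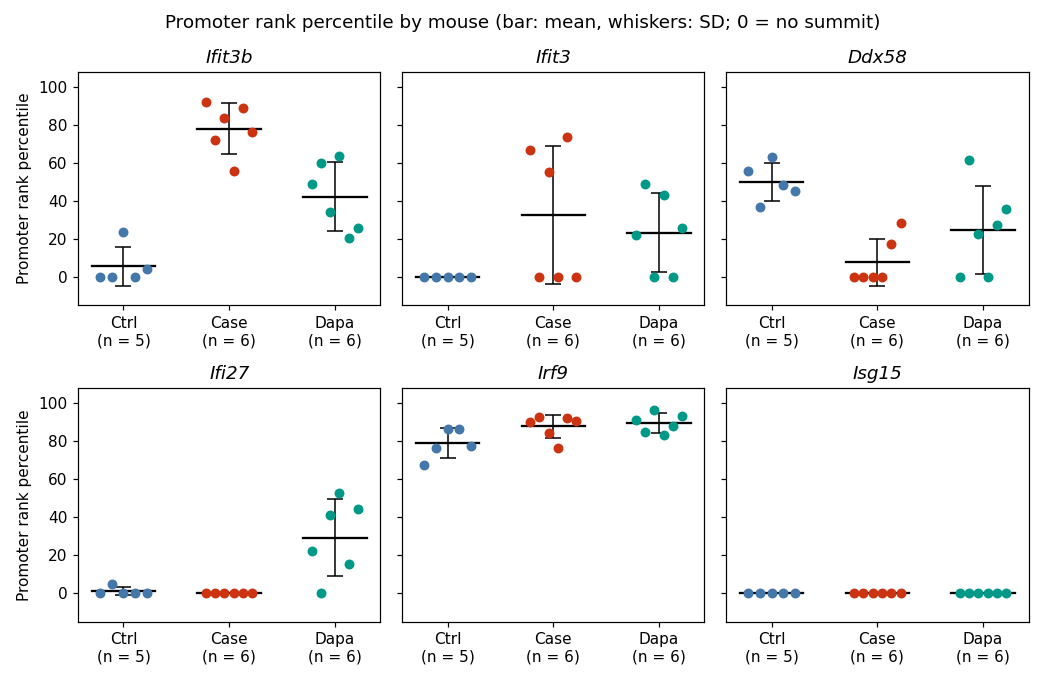
Promoter rank percentile (vertical axis) of 6 interferon genes in each mouse (points) by group (horizontal axis); bars are means and whiskers SD, and 0 stands for no summit. Ifit3b was 0 to 23.8 in Ctrl, 55.6 to 92.2 in Case and 20.5 to 63.8 in Dapa mice, and Isg15 was 0 in all 17.

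The Ifit3b summits were not a single sharp position. They lay between chr19:34607228 and chr19:34608000, with an SD of 157 bases over the 17 mice and a median offset of −269 bases from the annotated start. Ifit3, the near-identical neighbour, had no promoter summit in the equal-length lists of the 5 Ctrl mice, one in 3 Case mice (67.1, 55.1 and 73.5 in Case 1, 3 and 5) and one in 4 Dapa mice (22.1, 48.8, 43.3 and 25.5 in Dapa 7, 8, 10 and 12). Presence of the Ifit3 summit in db/db mice, 58.3% against 0%, gave p = 0.0441 by Fisher's exact test (adjusted p = 0.454). No Ctrl mouse had that summit in these lists, so Ifit3 was tested only through the db/db mice, where it is high. Ifit2 had a summit in 2 Ctrl, 4 Case and 2 Dapa mice, and Ifit1 in 0, 1 and 1. For Case against Ctrl, Ifit2 did not pass the permutation test (exact permutation p = 0.113), and Ifit1 and Ifit3 had summits in too few of these mice to be tested.

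**Figure D4:**
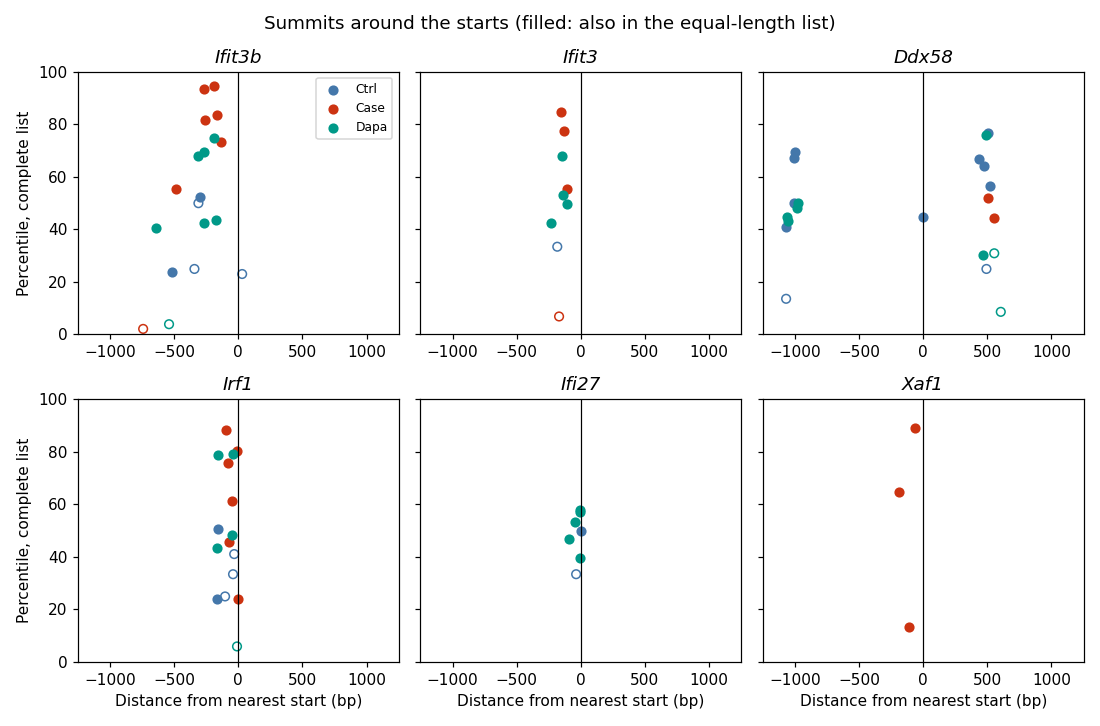
Summits around the nearest annotated start (vertical line) of 6 interferon genes; the horizontal axis is the distance in bases along the gene and the vertical axis the percentile within the complete list of the mouse. Filled points also belong to the equal-length list. Ifit3b summits were spread along the promoter with an SD of 157 bases, and Ddx58 had separate groups of summits near −1009 and 503 bases.

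Ddx58, which encodes the RNA sensor RIG-I, was lower in Case than in Ctrl mice. Its percentile was 55.7, 36.7, 62.9, 48.6 and 45.1 in Ctrl 1 to 5. In Case 1 to 6 it was 0, 0, 0, 0, 17.3 and 28.2. In Dapa 7 to 12 it was 0, 61.6, 22.8, 0, 27.2 and 35.7. Every Ctrl mouse lay above every Case mouse, and Dapa mice overlapped with both. The difference between Case and Ctrl was −42.2 points (exact permutation p = 0.00433, adjusted p = 0.166), and 223 of the 11682 genes tested, Ddx58 included, had a difference at least as low. Presence alone (5 of 5 Ctrl, 2 of 6 Case mice) did not pass Fisher's exact test (p = 0.0606). Every Ctrl mouse had a summit, so this total allowed no smaller p in that direction, and the test could not pass.

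Most Ddx58 promoter summits lay at sites away from its main start, and a summit 2 bases from a start was found in 1 Ctrl mouse only. At the one with most summits, a median of 503 bases downstream of the nearest annotated start, which itself lies inside the gene, a summit was found in 4 Ctrl, 2 Case and 2 Dapa mice. Another, at a median of −1009 bases from a start inside the gene, had a summit in 4 Ctrl, 0 Case and 4 Dapa mice, and in 5, 0 and 4 mice of the complete lists. That site lies at the edge of the window of 1 kb, and was singled out after its values were seen. With starts of protein-coding transcripts only, the Case minus Ctrl difference was −31.1 points (exact permutation p = 0.0390), and with a window of 500 bases or with lists of 14851 summits too few mice had a summit for a test. The 121 bases around the median summit of the main site (chr4:40239137-40239257, minus strand), shown because the accessible position lies inside the gene, held neither motif. The RefSeq promoter of Ddx58 held 1 ISRE match, at 2 bases from the start. The corresponding bases around the Irf9 summit (chr14:55604025-55604145, plus strand) are given beside it as a promoter found in all mice, and held 1 GAS match and no ISRE match. The capitals used above for the ISRE therefore do not occur in these sequences.
Ddx58: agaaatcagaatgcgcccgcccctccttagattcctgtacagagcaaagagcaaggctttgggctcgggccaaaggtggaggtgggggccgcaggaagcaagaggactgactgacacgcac
Irf9: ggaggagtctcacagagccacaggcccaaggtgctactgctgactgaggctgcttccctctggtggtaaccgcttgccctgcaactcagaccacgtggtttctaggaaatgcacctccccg

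Irf9, which encodes the DNA-binding subunit of the complex that recognises the ISRE, had percentiles of 67.6, 76.6, 86.5, 86.7 and 77.5 in Ctrl 1 to 5. The lowest, median and highest were 76.7, 90.6 and 92.6 in Case and 83.4, 89.6 and 96.7 in Dapa mice. The ranges overlapped. Case minus Ctrl was 8.91 points (exact permutation p = 0.0649, adjusted p = 0.371). Irf1 was 0, 0, 0, 28.8 and 4.24 in Ctrl mice, 0 to 88.2 in Case and 0 to 66.2 in Dapa mice, with a difference of 40.2 points between Case and Ctrl (a gene described after its values were seen) that did not pass the test (exact permutation p = 0.0649). By limma Irf1 passed at an unadjusted p under 0.05 but not after adjustment. All 5 Ctrl mice had an Irf1 promoter summit in the complete lists, and the means were 34.8 in Ctrl and 55.0 in Case mice. The summit 43 bases upstream of the Irf1 start was present in 0 Ctrl, 5 Case and 2 Dapa mice in the equal-length lists and in 2, 5 and 3 mice in the complete lists, a site singled out after its values were seen.

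In the window from 10 kb upstream to the end of the gene, 30 genes were tested for Case against Ctrl. At an unadjusted p under 0.05, Ifit3b, Irf2 and Ifnar2 were higher and Ddx58 was lower, 4 of 30, against 14.4% of 14575 genes. Of all genes at that threshold, 636 were higher and 1462 lower in Case mice. Irf2 averaged 79.9 in Case and 69.2 in Ctrl mice (exact permutation p = 0.0476), and Ifnar2 73.6 and 56.8 (exact permutation p = 0.0346). In the complete lists the means were closer, at 83.3 and 79.1 for Irf2 and 78.1 and 70.9 for Ifnar2, and 2 of 34 genes of the set passed. Fisher's exact test of promoter summit presence passed for 0 of 8 genes of the set at an unadjusted p under 0.05, against 11.3% of 1553 genes. The smallest p among the 8 was 0.0606, for Ddx58, which its total did not allow to be smaller in that direction.

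The second comparison asked what dapagliflozin changed in db/db mice. Of 28 genes tested, Ifit3b was lower and Ifi27 higher in Dapa than in Case mice at an unadjusted p under 0.05, 2 of 28, against 4.16% of 11494 genes (2.42% higher and 1.74% lower). After adjustment 0.0% of the genes passed. By limma 2 genes passed, neither of them in the set, where the smallest adjusted p was 0.871. The median difference was 0.685 points over the set and 0.218 over all genes.

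The Ifit3b mean was 78.1 ± 13.4 in Case and 42.2 ± 18.1 in Dapa mice, a difference of −35.9 points (SD, 6 mice each; exact permutation p = 0.00649, adjusted p = 1). With each mouse left out in turn the difference was −40.4 to −31.6 points, and by the rank among protein-coding promoters, which leaves out other summits, it was −18.2. The groups overlapped, since Dapa 8 at 59.9 and Dapa 10 at 63.8 lay above Case 4 at 55.6. This comparison shares the Case mice with the first.

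Ifi27, which encodes an interferon-induced mitochondrial protein, was 0, 4.81, 0, 0 and 0 in Ctrl mice and 0 in all 6 Case mice. In Dapa 7 to 12 it was 22.1, 0, 41.2, 52.5, 15.2 and 44.5. A summit was thus present in 5 of 6 Dapa mice and in 1 of 11 others. Ifi27 therefore met the filter of at least 4 mice with a summit through the Dapa mice alone, the group where it was high. Its tests, and the counts that include it, draw on that filter and are given as description only. The difference between Dapa and Case was 29.3 points (exact permutation p = 0.0152, adjusted p = 1), and presence gave p = 0.0152 by Fisher's exact test (adjusted p = 1), which passed for 1 of 8 genes of the set against 1.32% of 1061 genes. The summits lay at chr12:103434120-103434214, a median of 9 bases upstream of the start. Among summits with a score of at least 5 the difference was 11.7 points and did not pass (exact permutation p = 0.0606).

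Usp18, which encodes the protease that removes ISG15 from proteins, had a summit in 4 Ctrl, 3 Case and 6 Dapa mice. Its values were 37.4, 75.0, 53.0, 76.9 and 0 in Ctrl mice. In Case mice the lowest, median and highest were 0, 8.65 and 75.5, and in Dapa mice 35.0, 61.3 and 80.9. The groups overlapped, and the difference of 34.0 points between Dapa and Case did not pass the test (exact permutation p = 0.0563, adjusted p = 1). By limma it passed at an unadjusted p under 0.05 but not after adjustment.

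Xaf1, which encodes a pro-apoptotic interferon-induced protein, had a promoter summit in Case 1, 4 and 5 (48.3, 13.2 and 81.1) and in no Ctrl or Dapa mouse, too few for the test. The summits lay within chr11:72301441-72301565. Fisher's exact test of db/db against Ctrl gave p = 0.515.

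Over the window from 10 kb upstream to the end of the gene, Ifit3b and Ifnar2 were lower in Dapa than in Case mice at an unadjusted p under 0.05. These were 2 of 29 genes, against 4.25% of 14713 genes, and none passed after adjustment. Ifnar2 averaged 73.6 ± 11.2 in Case and 42.4 ± 28.9 in Dapa mice (SD, n = 6 each; exact permutation p = 0.0303). At its promoter alone Ifnar2 did not pass (exact permutation p = 0.0584). In this window only 1 of 35 genes passed in the complete lists and 1 of 28 without Case 3 and Dapa 8. With each mouse left out in turn 1 to 4 genes passed. Ifnar2 had no summit in Dapa 10, and Dapa 9 and Dapa 11 stood at 27.9 and 27.2.

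Dapa and Ctrl mice, which differ in genotype, strain and treatment together, were compared for 26 genes. Ifit3b, Ifi27 and Irf9 were higher in Dapa and none was lower at an unadjusted p under 0.05, 3 of 26, against 15.2% of 11692 genes, 3.3% higher and 11.9% lower. None passed after adjustment (0.0% of all genes), and by limma 56 genes passed but none of the set, whose smallest adjusted p was 0.108. Ddx58 averaged 24.6 in Dapa and 49.8 in Ctrl mice, a difference of −25.2 points that did not pass the permutation test (exact permutation p = 0.0519) and passed by limma at an unadjusted p under 0.05. The median difference was 4.96 points over the set and −2.54 over all genes, and −0.706 and −3.18 without Dapa 8. The differences were 36.6 points for Ifit3b (exact permutation p = 0.00866), 28.3 for Ifi27 (exact permutation p = 0.0260) and 10.6 for Irf9 (exact permutation p = 0.0346). The Ifit3b difference was 21.6 points in the complete lists (exact permutation p = 0.0476) and lost the threshold among summits with a score of at least 5 (15.6 points, exact permutation p = 0.134). The Ifi27 difference lost it in the complete lists (25.8 points, exact permutation p = 0.0823), among summits with a score of at least 5 (10.0 points, exact permutation p = 0.221) and by Fisher's exact test of presence (p = 0.0801). The Irf9 difference lost it in the complete lists (6.35 points, exact permutation p = 0.0779), with a score of at least 5 (8.99 points, exact permutation p = 0.117) and when Ctrl 1, 2 or 5 or Dapa 7, 9 or 12 was left out (p up to 0.0762, exact permutation). In the wider window Ifit3b and Irf9 passed, both higher in Dapa, 2 of 28 genes, against 15.0% of 14485 (770 genes higher and 1402 lower). Fisher's exact test passed for 0 of 6 against 8.41% of 1439 genes. The Ctrl and Dapa mice are those of the other comparisons.

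With both db/db groups joined (n = 12) against Ctrl, 28 genes were tested over 6188 relabellings. Ifit3b and Irf9 were higher and Ddx58 was lower at an unadjusted p under 0.05, 3 of 28, against 16.6% of 12107 genes, 2.37% higher and 14.2% lower. After adjustment 80 genes passed (0.661%) and none of the set, where the smallest adjusted p was 0.0602, for Ifit3b. By limma 150 genes passed, with Ifit3b as the only one of the set (adjusted p = 0.0212). The Ifit3b difference was 54.5 points (exact permutation p = 0.000646), again the highest of all genes tested. The Ddx58 difference was −33.7 points (exact permutation p = 0.00452, adjusted p = 0.0975) and that of Irf9 9.76 (exact permutation p = 0.0165, adjusted p = 0.180). Irf9 lost the threshold in the complete lists (4.87 points, exact permutation p = 0.153), with a score of at least 5 (6.03 points, exact permutation p = 0.298) and without Ctrl 1 (6.93 points, exact permutation p = 0.0560). Ddx58 lost it with lists of 14851 summits (−5.73 points, exact permutation p = 0.172), within 500 bp of a start (−12.4 points, exact permutation p = 0.311) and by Fisher's exact test of presence (p = 0.102). In that last test every Ctrl mouse had a Ddx58 summit, so no smaller p was possible in that direction. The median difference was 2.60 points over the set and −2.69 over all genes, and without Case 3 and Dapa 8, the mice with the most leukocyte marker promoters, it was −0.251 and −3.09.

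**Figure D5:**
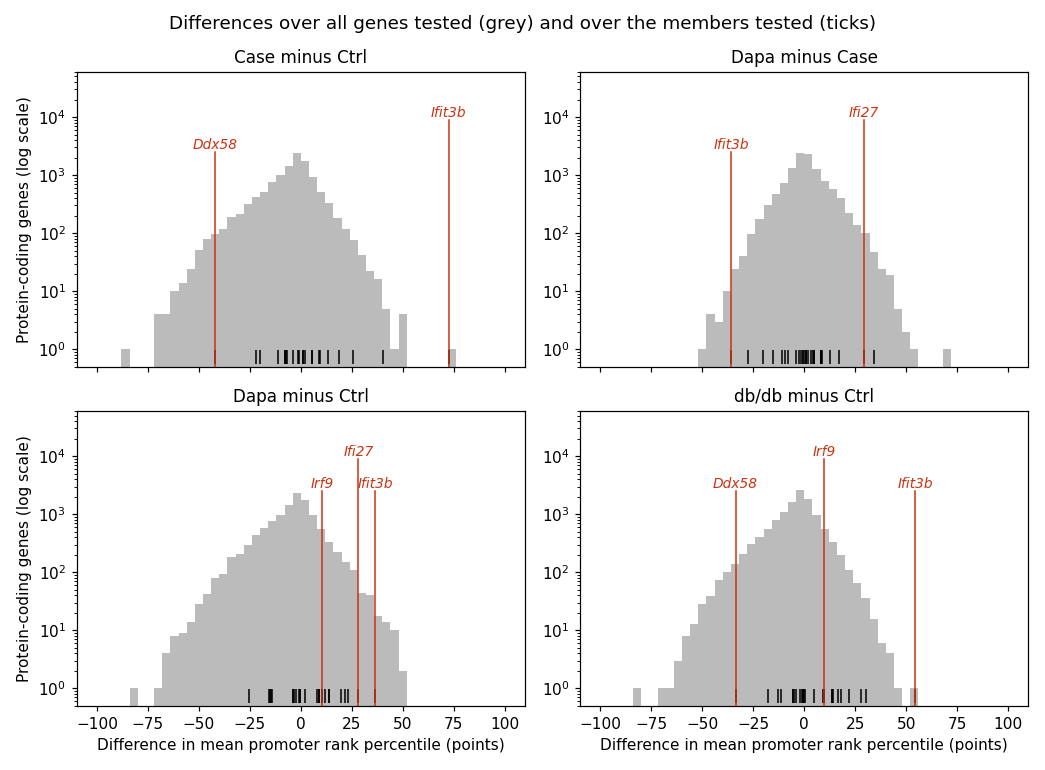
Distribution of the difference in mean promoter rank percentile (horizontal axis, points) over all protein-coding genes tested (grey bars; vertical axis, number of genes on a log scale) in the 4 comparisons. Ticks mark the interferon genes tested and red lines those with an unadjusted p under 0.05; Ifit3b stood at 72.5 points for Case minus Ctrl and at 54.5 for db/db minus Ctrl, at the upper end of the distribution.

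Presence of a promoter summit differed between db/db and Ctrl mice for Ifit3b (12 of 12 against 2 of 5 mice, p = 0.0147, Fisher's exact test), Ifit3 and Ifi35 (58.3% against 0% each, p = 0.0441, Fisher's exact test), 3 of 16 genes against 9.72% of 3633 genes, none of them after adjustment. Of all genes at an unadjusted p under 0.05, 25 were higher and 328 lower in db/db mice. No Ctrl mouse had an Ifit3 or Ifi35 summit in the equal-length lists. Both genes were thus tested only through the db/db mice, where they are high, and the count of 3 includes them. In the complete lists Ifit3 and Ifi35 also had a summit in 1 Ctrl mouse each and Ifit3b in all 17 mice, and only 1 gene of the set passed. Ifi35, which encodes an interferon-induced leucine zipper protein, was 0 in all 5 Ctrl mice, had a median of 20.9 in Case (0 to 48.1) and of 15.4 in Dapa mice (0 to 53.1), and was present in 3 and 4 mice. Parp14, which encodes an ADP-ribosyltransferase, was 0 in all Ctrl mice and present in 2 Case (55.1 and 35.0) and 3 Dapa mice (55.9, 41.2 and 13.8), and did not pass (Fisher's exact test, p = 0.245). Rnf213, which encodes a large ubiquitin ligase, was present in 0 Ctrl, 2 Case (37.9 and 9.00) and 3 Dapa mice (53.3, 36.6 and 31.8) at the GENCODE starts of the equal-length lists. In the complete lists it was present at these starts in 5 Ctrl, 2 Case and 3 Dapa mice, with means of 28.4, 15.6 and 27.5, so that Case was then the lowest group. Its RefSeq start lies 3001 bases from the nearest GENCODE start, and within 1 kb of the RefSeq start a summit was found in 5 Ctrl, 6 Case and 5 Dapa mice, so that the Rnf213 pattern depends on the list and on the annotation.

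In the window from 10 kb upstream to the end of the gene, 8 of 32 genes passed an unadjusted p under 0.05 for db/db against Ctrl, against 16.1% of 15426 genes. Of all genes at that threshold, 703 were higher and 1786 lower in db/db mice. Ifit3b, Irf1, Irf2, Irf9, Bst2, Parp14 and Ifi35 were higher and Ddx58 was lower. Parp14 had a summit in this window in 0 Ctrl, 4 Case and 4 Dapa mice. It thus met the filter through the db/db mice alone, where it is high. Its test, and the count of 8 that includes it, draw on that filter. The mean percentiles in db/db and Ctrl mice were 62.3 and 34.0 for Irf1, 79.7 and 69.2 for Irf2, 92.0 and 87.5 for Bst2, 26.4 and 0 for Parp14 and 95.9 and 92.2 for Ifi35 (exact permutation p from 0.0255 to 0.0459). Means in the complete lists were closer for 4 of these genes. In Ctrl, Case and Dapa mice they were 56.6, 70.3 and 70.8 for Irf1 and 79.1, 83.3 and 83.8 for Irf2. They were 91.6, 92.4 and 94.3 for Bst2 and 94.9, 96.6 and 96.7 for Ifi35, and 3 of 36 genes of the set passed in those lists. In this window a site at −5304 bases from the nearest Bst2 start, within 1 kb of a start of Mvb12a, and one at −6131 bases from the nearest Ifi35 start, within 1 kb of a start of Rpl27, were present in all 17 mice. The Ifi35 promoter itself averaged 22.0 in db/db mice and 0 in Ctrl, so the window values of these genes include neighbouring promoters. None passed after adjustment by the permutation test, and by limma Ifit3b alone passed. With each mouse left out in turn, 3 to 7 genes passed, fewer than with all mice in every case.

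The remaining interferon pathway was described by 77 other genes, of which 75 were found in the annotation. They had a promoter summit in all 17 mice for 17 genes (22.7%), in 1 to 16 for 37 (49.3%) and in none for 21 of the 75, against 31.6%, 35.6% and 32.9% of all protein-coding genes. Of those tested, 8 of 38 passed an unadjusted p under 0.05 for Case against Ctrl, 4 higher and 4 lower, against 14.4% of all genes. For Dapa against Case it was 2 of 37 (4.16% of all genes), for Dapa against Ctrl 6 of 38 (15.2%) and for db/db against Ctrl 7 of 41 (16.6%), and none passed after adjustment. The genes described next had the smallest p among these promoters for Case against Ctrl; Parp12, Irgm1 and Psme2 tied. The nuclear body gene Sp110 averaged 62.0 in Case and 22.0 in Ctrl mice (exact permutation p = 0.0130). The immunity-related GTPase gene Irgm1 averaged 49.0 in Case, 9.76 in Ctrl and 16.7 in Dapa mice (exact permutation p = 0.0303 for Case against Ctrl and 0.0368 for Dapa against Case). Oasl1, a relative of the oligoadenylate synthetases, averaged 98.5 in Case and 94.4 in Ctrl mice (exact permutation p = 0.0260). Trim21, an antibody receptor of the cytosol, averaged 92.8 and 98.1 (exact permutation p = 0.0216), and the ADP-ribosyltransferase gene Parp12 0 and 20.5 (exact permutation p = 0.0303). Parp12 had no summit in any Case mouse, so it met the filter through the Ctrl mice alone, where it is high. Trim30a, at 0 in Dapa and 34.3 in Ctrl mice, likewise entered the Dapa against Ctrl count through the Ctrl mice alone. The counts that include these 2 genes draw on that filter. Psme2, which encodes a proteasome activator subunit, averaged 97.4 and 94.3 (exact permutation p = 0.0303).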

How the data were processed

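ATAC-seq had been performed on kidney cells of 17 mice. According to the methods of the study, the authors aligned reads to mm10 with Bowtie2 following ENCODE, discarded duplicate reads and blacklisted regions, shifted reads for the transposase and called peaks with MACS2 in each library. The deposited files score each summit by a −log10 value; whether of a p-value or a q-value is not given in the sources used here. Summit positions fell within the chromosomes of GRCm38, the build used for annotation (GENCODE M21) and sequence. Scores were used as ranks within a library, except in 1 alternative with a score minimum. Tied scores shared a mean rank, and 1 to 3782 summits inside the equal-length lists were tied with the last one kept.

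Groups came from the labels. Difference tests were exact permutation tests over all relabellings of the mice, per protein-coding gene with a promoter summit in at least 4 mice of the comparison (a start being that of any transcript), with Benjamini-Hochberg adjustment. Fisher's exact test was used for presence. A gene could meet the filter of 4 mice through 1 group alone, so whether it was tested could depend on its difference. Mx2 is not annotated as protein-coding in GENCODE M21, so its values are given without a test. Each mouse is 1 library, so p-values measure the spread between mice. The tests were checked on simulated data. Summits of a gene within 250 bases were joined into a site. Near-identical copies were searched with blastn 2.17.0. Python 3.11.15, scipy 1.17.1 and limma 3.58.1 were used.

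The genes, lists, windows and tests were chosen with earlier results of these data known. Values by mouse, or as a summary by group, are given for Isg15, for genes with an unadjusted p under 0.05 in a promoter test, for genes with a difference of 0.5 or more between groups in the fraction of mice having a summit, and for the 3 highest; Irf1 and other genes with values outside this rule were chosen after their values were seen. Of the other interferon pathway genes, 5 are named in order of p for Case against Ctrl in promoters, and Psme2 because it tied with the last of them. Alternatives were complete lists, lists of 14851 summits, a score of at least 5, windows of 500 bp and 3 kb, protein-coding starts, ranks among promoters, other filters and gene sets, limma, presence, leaving out each mouse and same-numbered Ctrl and Case mice as pairs.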

Additional observations from a re-analysis of the deposited data

Results flagged for a closer look

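Among 35 series of values within a group, 4 had a mouse far from the others of its group, judged by the ratio of its gap to the range (Dixon). Chance marks about 1 in 20 such series where values are normally distributed. Many percentiles here are 0, and a single value above 0 among zeros gives a ratio of 1 whatever its size. The Ifit3b promoter rank percentile of Ctrl 3 was 23.8, with the other Ctrl mice at 0 to 4.24. That of Ifi27 in Ctrl 2 was 4.81, with the others at 0. Rnf213 in Case 5 was at 37.9, with the others at 0 to 9, and Ifngr1 in Case 3 was at 93.8, with the others at 97.7 to 99.4.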

How the results depend on the processing

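The Ifit3b differences kept their direction under every alternative run in the 4 comparisons; that of Dapa against Ctrl did not pass among summits with a score of at least 5 (15.6 points, exact permutation p = 0.134). Counts of genes of the set at an unadjusted p under 0.05 in promoters, given for Case against Ctrl, Dapa against Case, Dapa against Ctrl and db/db against Ctrl as far as they moved by over 1.5 times, were as follows. From 2, the first became 1 with lists of 14851 summits, within 500 bp and with a summit in at least 8 mice, 4 by rank among protein-coding promoters and 0 by Fisher's exact test. From 2, the second became 1 with the shorter lists, a score of at least 5, at least 8 mice or Fisher's exact test, and 4 by limma. From 3, the third became 1 with the shorter lists, 5 by promoter rank, 6 by limma and 0 by Fisher's exact test. From 3, the last became 7 by promoter rank and 5 by limma. The cause was not tested.

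In the wider window the first count (4) became 2 in the complete lists. The second (2) became 1 in the complete lists, with a score of at least 5 and without Case 3 and Dapa 8, and 4 by limma. The third (2) became 1 with the shorter lists and 4 by limma. The last (8) became 3 in the complete lists, 5 with the shorter lists, 4 with a score of at least 5 and 5 without Case 3 and Dapa 8. For presence, the first (0) became 1 with the shorter lists and within 500 bp, the second (1) became 0 with the shorter lists and a score of at least 5, the third (0) became 1 without Case 3 and Dapa 8, and the last (3) became 1 in the complete lists, with the shorter lists, a score of at least 5 and without Case 3 and Dapa 8. Genes with a promoter summit in all mice fell to 6 with the shorter lists, and genes with none rose to 10 with these and 8 with a score of at least 5. Isg15 had a summit in 11 mice within 3 kb.

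With each mouse left out in turn the promoter counts were 2 to 4, 2 to 4, 2 to 5 and 2 to 3, those of the wider window 2 to 5, 1 to 4, 1 to 3 and 3 to 7, and those of presence 0 to 1, 1 to 1, 0 to 2 and 0 to 3. Promoter counts moved by over 1.5 times without Case 4 (4 genes, Case against Ctrl), Dapa 12 (4, Dapa against Case) and Dapa 9 (5, Dapa against Ctrl). Irf9 for db/db against Ctrl lost the threshold without Ctrl 1 (exact permutation p = 0.0560), in the complete lists (p = 0.153) and with a score of at least 5 (p = 0.298), and Ddx58 with the shorter lists (p = 0.172) and within 500 bp (p = 0.311). For Dapa against Ctrl, Ifi27 lost it in the complete lists (exact permutation p = 0.0823), with a score of at least 5 (p = 0.221) and by Fisher's exact test (p = 0.0801), and Irf9 in the complete lists (p = 0.0779) and with a score of at least 5 (p = 0.117).

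With same-numbered Ctrl and Case mice as pairs (replicate block), 0 genes of the set passed, since 5 pairs cannot give a p below 0.0625 (exact sign-flip test); Ifit3b differed by 72.8 and Ddx58 by −46.4 points, both at that smallest p, as did 1388 of 11682 genes. Same-numbered mice shared only a number: the correlations of their deviations were −0.0481 to 0.0395 over 6924 genes. Leaving out Case 3 and Dapa 8 and keeping all summits tied at the end of a list were chosen after seeing the data. Depth is unknown, so an absent summit may be one below the calling threshold.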
